A study of Mus musculus with 16 samples.

Results

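Mutant and wild-type mice were compared at 1 year of age: 8 single-colour Agilent microarrays, 4 of nm3342 mutants and 4 of wild types, out of 16 arrays in the series. These 8 arrays were chosen by their labels alone. The other 8 hold the same genotypes at 1 month and entered the statistical model, where they helped to estimate the spread between arrays. All mice had the strain background C57Bl/6J and were labelled male. Each sample was total RNA from the retina and the retinal pigment epithelium (RPE), the pigmented sheet behind the photoreceptors, taken from both eyes together. A level therefore cannot be assigned to either tissue, and fewer cells of a type cannot be told apart from less RNA per cell. The series title presents the nm3342 mouse as a possible model of serous retinal detachment, a condition in which fluid collects between retina and RPE. The labels do not name the mutated gene, so the genotype of an array could not be checked through its target. Nothing in the labels says how the mice of a group were related, so the p-values measure the spread between these samples.

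In the retina, rods and cones turn light into a signal, bipolar cells carry it inward, and ganglion cells send it to the brain. Müller glia span the whole retina, clear glutamate and potassium, and answer many kinds of damage with gliosis, a change of state marked by the filament protein GFAP and by acute-phase and cytokine-response genes. The RPE recycles the visual pigment, takes up shed outer segments and pumps fluid away from the retina. Damaged photoreceptors are known to release endothelin 2 and Müller glia to respond to it, and signalling through the receptor chain gp130 and the transcription factor STAT3 is a known route into gliosis. Microglia are the resident immune cells of the retina.

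Markers of the labelled tissue were present on all 8 arrays. A level is the log2 signal minus the array's 75th percentile, so a level of 0 is a fairly bright gene. Gnat1, the rod transducin gene, read 7.56 to 7.96 and the RPE isomerase gene Rpe65 read 2.98 to 4.00 over the 8 arrays. Best1, an RPE chloride channel gene, was on the array and did not pass the filter on dim probes. Between 82.9% and 88.5% of spots had a signal well above background, and arrays of a group correlated at 0.980 to 0.993 over the genes tested. On the array labelled mutant replicate 1, Xist was at -0.03 and Ddx3y at -8.47, which goes against its label of male sex. On the other 7 arrays Xist lay at or below -5.99 and Ddx3y at or above 0.74.

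At 1 year 163 of 19022 genes differed between mutant and wild type at a Benjamini-Hochberg adjusted p under 0.05 in limma, which is 0.857% of the genes tested. Of these, 116 were higher in the mutants (0.610%) and 47 were lower (0.247%). In all 163 the levels of the 4 mutant and the 4 wild-type arrays did not overlap, a separation seen in 1490 genes in all (7.83%). An unadjusted p under 0.05 was found for 2159 genes, 11.4% of those tested, which is the share to set beside such counts in the gene lists. Most differences were modest: 38 called genes differed by at least 2-fold, 24 of them higher and 14 lower. The count depended on single arrays. It was 308 without wild-type replicate 4, 84 without wild-type replicate 2 and 96 without mutant replicate 1, the array whose sex-linked genes went against its label. The arrays were on 2 slides with 2 arrays of each group apiece, and within a slide, where 2 arrays met 2, the count was 10 and 12. With slide as a block it was 154. Array row was less even than slide. Mutant replicates 1 to 4 were in rows 2, 2, 1 and 2, and wild-type replicates 1 to 4 in rows 1, 2, 1 and 1. With array row as a covariate the count was 138, and 120 were the same genes.

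The highest rise belonged to Edn2 on chromosome 4, which encodes endothelin 2. Its level was 2.11, 1.94, 2.76 and 2.05 on the mutant arrays and -1.76, -2.07, -1.92 and -1.62 on the wild-type arrays. Every mutant array was far above every wild-type array. The log2 difference was 4.06 ± 0.27 (SE), a 16.6-fold rise with an adjusted p of 8.0e-07. It was 4.34 within slide 1 and 3.77 within slide 2. None of the other genes of the endothelin list, 7 in all, passed. Edn1 differed by 0.06, and Edn3 by -0.77 (adjusted p = 0.066). The receptor genes Ednra and Ednrb differed by -0.42 and -0.45 (adjusted p = 0.17 and 0.22), with all 4 mutant arrays below the wild types in both.

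Calca lies on chromosome 7. It encodes calcitonin and, by alternative splicing, the neuropeptide CGRP. The mutant arrays read -0.39, -0.18, -0.13 and -0.51 and the wild types -3.42, -3.45, -3.10 and -2.99. The difference was 2.94 ± 0.14 (adjusted p = 9.6e-08), 7.67-fold. A second probe, for another transcript of the gene, differed by 0.04, so the rise belongs to 1 of the 2 probes. No other member of the calcitonin family list passed, although 6 of the 7 tested, Calca included, had an unadjusted p under 0.05. Of the 7, 5 had negative differences, with a list median of -0.37. Over 5 ways of scaling the arrays 1 to 2 of them were called. Calcrl, Calcb and Iapp did not pass the filter on dim probes.

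Lcn2, on chromosome 2, encodes lipocalin 2, an acute-phase protein that binds iron-carrying siderophores. Its mutant arrays spread more than those of Edn2, at 2.20, 2.47, 3.53 and 1.46, and the wild types stood at -0.16, -0.54, 0.06 and -0.40. The groups did not overlap and the difference was 2.68 ± 0.30 (adjusted p = 0.00038). Lcn2 alone passed among 16 iron genes. Ccl28, a mucosal chemokine gene, was dim in both groups, at -3.49, -2.94, -2.74 and -3.13 in the mutants and -5.32, -5.21, -5.53 and -5.08 in the wild types. Its difference was 2.21 ± 0.16 (adjusted p = 3.6e-06), and it alone passed among 25 chemokine and cytokine genes.

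**Figure D1:**
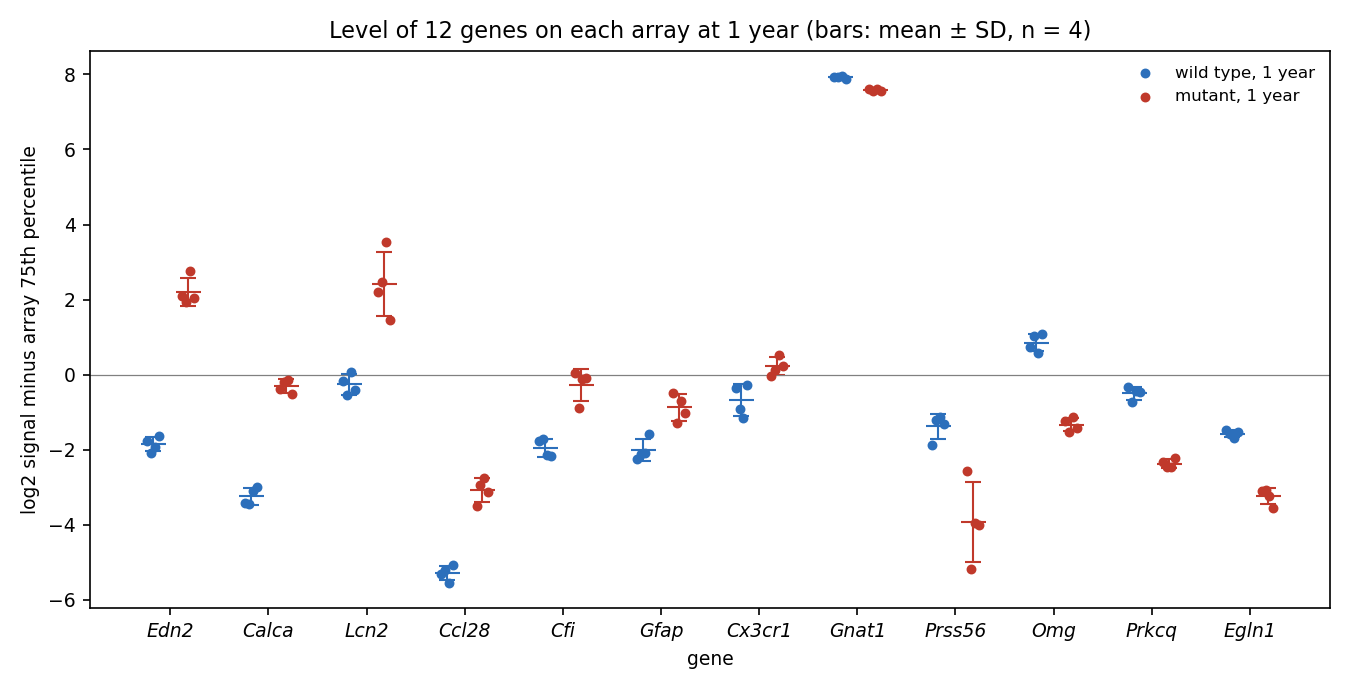
Level of 12 genes on each 1-year array, as log2 signal minus the array's 75th percentile, with points for arrays, bars for mean ± SD and n = 4 per group (wild type blue, mutant red). Edn2 shows the widest gap, from a mean of -1.84 in the wild types to 2.21 in the mutants, while Prss56, Omg, Prkcq and Egln1 lie lower in the mutants.

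The remaining large rises fell in no single group of genes. Cuedc1 rose by 2.17 ± 0.13 on chromosome 11. Adam7, a gene of a catalytically inactive ADAM family protein of the epididymis, rose by 1.78 ± 0.17, and Lalba, the milk protein alpha-lactalbumin, by 1.67 ± 0.10. Mctp1, a calcium-binding membrane protein gene, rose by 1.61 ± 0.14, and the cardiac troponin gene Tnnt2 by 1.55 ± 0.17. Tcstv1 was not well above background on any wild-type array. Against the dimmest signal that counted as well above background in the wild types, or its own level where that was higher, it was at least 2.70-fold higher (adjusted p = 0.036), and its call held in 1 of the 8 fits that each left out 1 array.

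Gliosis genes gave the most calls of any list, though the lists were written with earlier results of these data known. Of 22 tested, 6 were called higher (0.610% of all genes were) and none lower. Positive differences were found in 20, and the list median was 0.61 against -0.01 for all genes. In 11 of the 22 all mutant arrays lay above all wild-type arrays, where 4.39% of all genes did so. Besides Edn2 and Lcn2, the members that rose were C4b, Osmr, Socs3 and Stat3. All 6 also count in another list, so they are not separate results there. Edn2 is in the endothelin list, Lcn2 in the iron list and C4b in the complement list. Osmr, Socs3 and Stat3 are in the gp130 cytokine list. C4b, the complement component that tags surfaces, read 4.07, 3.57, 4.05 and 3.92 in the mutants and 2.81, 2.36, 2.71 and 2.70 in the wild types, a difference of 1.25 ± 0.17 (adjusted p = 0.0021). Gfap, the classical marker, missed the threshold. Its levels were -0.48, -1.28, -0.69 and -1.02 in the mutants and -2.25, -2.10, -2.09 and -1.59 in the wild types. These do not overlap, and the difference was 1.14 ± 0.26 (adjusted p = 0.058). Of 2 further Gfap probes, one for another transcript differed by 1.88 ± 0.22 (adjusted p = 0.00062 over all probes) and one for the same transcript by 0.17, so the probes disagree. Serpina3n, Cp and A2m, acute-phase genes, differed by 0.93, 0.86 and 1.08 without passing. The filament genes Vim and Nes both differed by 0.23 and did not pass either. The count of calls ran from 3 to 8 over 5 ways of scaling the arrays, and was 4 without wild-type replicate 2 and 4 with the lens gene level of each array as a covariate. The mean level of the list was 1.26 to 1.52 on the mutant arrays and 0.41 to 0.77 on the wild types.

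Within the gp130 cytokine pathway the receptor, the transcription factor and its feedback inhibitor rose, and the ligands did not. Osmr, the receptor subunit for oncostatin M, read 1.34, 1.51, 1.43 and 1.54 in the mutants and 1.04, 0.70, 1.00 and 0.59 in the wild types (0.62 ± 0.11, adjusted p = 0.011). Stat3 read 2.37, 2.53, 2.58 and 2.52 against 1.99, 1.93, 2.07 and 1.75 (0.56 ± 0.09, adjusted p = 0.0050), and its second probe differed by 0.67. Socs3, the inhibitor that STAT3 switches on, rose by 0.60 ± 0.13 (adjusted p = 0.047). No ligand passed: Lif and Osm both differed by -0.46, with mutant arrays below wild types, and Cntf by 0.33. The shared receptor chain gene Il6st differed by -0.12, and the kinase genes Jak1 and Jak2 by 0.06 and 0.04. In all, 3 of 22 members were called, all higher, with a list median of 0.05. Over 5 ways of scaling the arrays 0 to 3 were called, and with the lens gene level of each array as a covariate 1 was. Stat3 kept its call in all 8 fits that left out 1 array. Osmr lost it without wild-type replicate 2 (adjusted p = 0.053), and Socs3 kept it in 2 of the 8 fits.

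Promoters of 3 of these genes are shown, those of the largest rise, of an acute-phase gene and of the STAT3 feedback inhibitor. They come from RefSeq (build GRCm38.p6) and run from 250 bases before to 50 after the gene's start, 5′ to 3′ on the gene's strand. Capitals mark TTCNNNGAA, a STAT motif, or TTGCNNAA, a C/EBP motif, searched on both strands.
Edn2, chr4:120160956-120161255, plus strand: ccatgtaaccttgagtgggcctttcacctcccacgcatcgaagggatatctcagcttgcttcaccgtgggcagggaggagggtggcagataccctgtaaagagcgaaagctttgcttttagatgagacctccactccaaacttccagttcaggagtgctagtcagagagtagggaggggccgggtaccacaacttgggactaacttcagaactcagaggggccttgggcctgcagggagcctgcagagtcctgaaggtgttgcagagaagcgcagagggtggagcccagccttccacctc
Lcn2, chr2:32387690-32387989, minus strand: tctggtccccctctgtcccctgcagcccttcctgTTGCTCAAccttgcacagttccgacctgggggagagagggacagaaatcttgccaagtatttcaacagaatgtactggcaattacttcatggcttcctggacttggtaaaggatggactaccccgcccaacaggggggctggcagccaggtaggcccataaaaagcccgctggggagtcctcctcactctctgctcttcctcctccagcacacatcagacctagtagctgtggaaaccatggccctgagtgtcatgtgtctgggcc
Socs3, chr11:117969317-117969616, minus strand: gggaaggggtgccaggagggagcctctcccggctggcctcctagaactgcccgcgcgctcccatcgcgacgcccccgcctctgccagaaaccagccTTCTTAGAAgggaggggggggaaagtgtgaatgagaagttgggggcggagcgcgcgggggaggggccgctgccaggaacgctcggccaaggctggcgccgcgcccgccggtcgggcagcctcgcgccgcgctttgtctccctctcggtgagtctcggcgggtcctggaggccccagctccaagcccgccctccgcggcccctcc
The Socs3 window held 1 STAT motif, beginning at base -154 from the start, and the Lcn2 window 1 C/EBP motif, beginning at base -216. Neither sequence was found in the Edn2 window, nor in those of Stat3 and Osmr. Promoters matched for 87 of the 116 genes that rose, and 6 of these (6.90%) held TTCNNNGAA, beside 8.88% of the 15053 tested genes with a promoter. For TTGCNNAA the counts were 11 (12.6%) and 11.2%. The stricter STAT form TTCCNGGAA, whose matches are all matches to TTCNNNGAA as well, was in 2 of the 87 (2.30%) and in 1.47% of all. Among the 34 matched genes that fell, 7 (20.6%) held TTCNNNGAA, 6 (17.6%) TTGCNNAA and 1 (2.94%) TTCCNGGAA. The motifs were chosen after the values were seen, and a match is a description of the window only.

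Müller glia genes outside gliosis shifted upward by small amounts. Of 18 tested, 2 were called higher and none lower, 14 had positive differences, and the list median was 0.15. In 5 all mutant arrays lay above all wild types, as in 4.39% of all genes, and 8 had an unadjusted p under 0.05. The mean level of the list was 3.01 to 3.14 on the mutant arrays and 2.81 to 2.90 on the wild types. Crym, a thyroid hormone-binding crystallin of Müller glia, read 4.26, 3.95, 4.42 and 4.28 in the mutants and 3.31, 3.43, 3.23 and 3.31 in the wild types (0.91 ± 0.11, adjusted p = 0.00093), with a clear gap between the groups. Clu, the chaperone clusterin, rose by 0.44 ± 0.09 (adjusted p = 0.036), a call that held in 2 of the 8 fits that left out 1 array. Glul, the glutamine synthetase gene, differed by -0.09 and the retinoid-binding gene Rlbp1 by 0.11, and neither passed. Some further called genes are named here after their values were seen, and they belong to no list. Those that rose include Gstm1 (1.16 ± 0.20, its second probe 0.30 and not called), a glutathione transferase, Glrx (1.03 ± 0.16), a glutaredoxin, and Gadd45b (0.99 ± 0.13), a stress-response gene. The amino acid transporter genes Slc7a10 and Slc7a5 rose by 0.67 and 0.43, and the astroglial membrane gene Mlc1 by 0.41. Gstm1, Glrx and Gadd45b kept their calls in all 8 fits that left out 1 array. Slc7a10 and Slc7a5 did so in 6, and Mlc1 in none. Etnppl and Scrg1, which astroglia also express, were called lower, with differences of -0.71 and -0.83. Etnppl lost its call in 6 of the 8 fits that left out 1 array. Both were also called at 1 month, with differences of -2.01 and -1.04. For Etnppl the gap between the ages was 1.30 (adjusted p = 0.011 in limma).

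**Figure D2:**
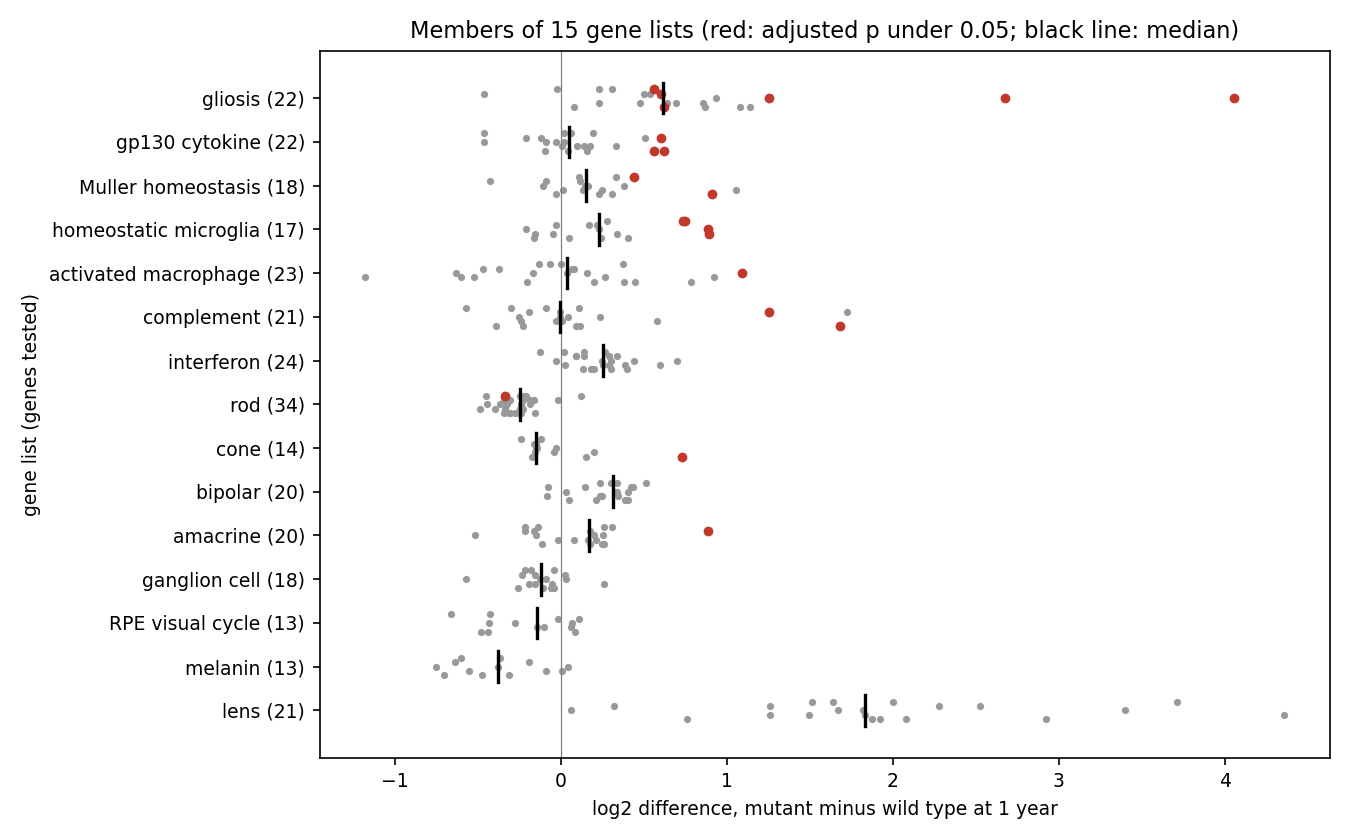
Log2 difference of every tested member of 15 gene lists, mutant minus wild type at 1 year, with 1 point per gene, red where the adjusted p was under 0.05 and a black line at the list median. The gliosis list has a median of 0.61 with 6 red points, nearly all rod genes lie left of 0, and the lens list is spread widely to the right with no red point.

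Complement and immune genes were called in a few members only. Of 21 complement genes, Cfi and C4b were called higher and none lower, and 6 had an unadjusted p under 0.05. Cfi, the protease that inactivates C3b and C4b, read 0.04, -0.89, -0.11 and -0.08 in the mutants and -1.76, -1.72, -2.15 and -2.15 in the wild types, with mutant replicate 2 nearest to the wild types. Its difference was 1.68 ± 0.19 (adjusted p = 0.00031). C3 differed by 0.58 and C1qa by 0.11 without passing, and the list median was -0.00.

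Of 17 homeostatic microglia genes, 4 were called higher (0.610% of all genes were) and none lower, and 8 had an unadjusted p under 0.05. In 8 all mutant arrays lay above the wild types (4.39% of all genes), and the list median was 0.23. Cx3cr1, the fractalkine receptor, read -0.03, 0.13, 0.54 and 0.24 in the mutants and -0.34, -0.91, -1.14 and -0.27 in the wild types. The groups lay close together at their nearest arrays, and the difference was 0.89 ± 0.19 (adjusted p = 0.0497). It was 1.36 within slide 1 and 0.41 within slide 2. Sall1, a transcription factor of microglial identity, rose by 0.89 ± 0.17, Gpr34 by 0.75 ± 0.16 and the nucleotide receptor gene P2ry13 by 0.74 ± 0.15. P2ry12 and Tmem119, which define the type, differed by 0.17 and 0.28 and did not pass. These 4 calls were fragile: Cx3cr1, Gpr34 and P2ry13 kept theirs in 2, 1 and 2 of the 8 fits that left out 1 array, and Sall1 in 5. With the lens gene level of each array as a covariate, an alternative chosen after seeing the data, none of the 4 passed. With array row as a covariate 1 gene of the list was called.

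Of 23 genes of activated macrophages 12 had positive and 11 negative differences, and 10 had an unadjusted p under 0.05. Cst7 alone was called, and it rose. This cystatin gene of activated microglia stood at -1.86, -2.51, -1.85 and -2.03 in the mutants and -3.08, -3.34, -3.20 and -2.98 in the wild types (1.09 ± 0.17, adjusted p = 0.0065). Spp1, Gpnmb and Lyz2 differed by -0.60, -0.52 and -0.63 without passing. No interferon-response gene of 24 passed (3 at an unadjusted p under 0.05), although 22 had positive differences, with a median of 0.25. No antigen presentation gene of 18 passed (2 at an unadjusted p under 0.05). Il7r, the interleukin 7 receptor gene of lymphocytes, fell by 1.19 ± 0.22 (adjusted p = 0.020) and was the only called member of 15 lymphocyte genes. It kept its call in 3 of the 8 fits that left out 1 array. The neutrophil genes S100a8 and S100a9 differed by -1.58 and -1.37 with overlapping groups (adjusted p = 0.41 and 0.52).

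Of 34 rod genes 1 passed the test, and it fell. Gnat1, the alpha subunit of rod transducin, read 7.62, 7.56, 7.62 and 7.56 in the mutants and 7.93, 7.93, 7.96 and 7.88 in the wild types, with little spread inside either group and no overlap. It fell by 0.33 ± 0.06 on the log2 scale (adjusted p = 0.025). Of the 34, 33 had negative differences, with a median of -0.25 against -0.01 for all genes, and in 20 all mutant arrays lay below all wild types, where 3.44% of all genes did so. The phosphodiesterase genes Pde6a and Pde6b differed by -0.25 and -0.34, and the rod transcription factor genes Nrl and Nr2e3 by -0.31 and -0.37, none of them called. Sag, which encodes rod arrestin, was the exception at 0.12. The mean level of the rod list was 5.08 to 5.21 on the mutant arrays and 5.35 to 5.50 on the wild types. Gnat1 kept its call in 1 of the 8 fits that left out 1 array, while the list median stayed between -0.30 and -0.24 in them. Over 5 ways of scaling the arrays the median lay between -0.28 and -0.18.

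Other photoreceptor genes, chosen after their values were seen, were also called lower. Rp1l1, a microtubule protein gene of the photoreceptor axoneme, fell by 0.62 ± 0.13, Cdhr1, a cadherin of the outer segment base, by 0.45 ± 0.10, and Whrn, a periciliary scaffold gene, by 0.35 ± 0.07. Esrrb, a nuclear receptor gene of rods, fell by 0.54 ± 0.10 and the potassium channel gene Kcnj14 by 0.55 ± 0.10. Hk2, the hexokinase that photoreceptors use in aerobic glycolysis, read 2.76, 2.65, 2.84 and 2.51 in the mutants and 3.49, 3.49, 3.52 and 3.12 in the wild types. It fell by 0.72 ± 0.11 (adjusted p = 0.0048) and kept its call in all 8 fits that left out 1 array. The other 5 lost theirs in 2 to 7 of those fits.

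Of 14 cone genes only Gnb3 passed, and it rose, while 11 of the 14 had negative differences. Gnb3 encodes the transducin beta subunit of cones and ON bipolar cells, and read 4.32, 4.08, 4.39 and 3.81 in the mutants and 3.49, 3.32, 3.26 and 3.63 in the wild types (0.73 ± 0.14, adjusted p = 0.021). It kept its call in 4 of the 8 fits that left out 1 array. The opsin genes Opn1sw and Opn1mw differed by -0.24 and -0.15, and the list median was -0.15. No gene of the photoreceptor synapse passed of 21 tested, with 4 at an unadjusted p under 0.05.

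In the inner retina no bipolar gene of 20 passed (11 at an unadjusted p under 0.05), but 18 had positive differences and the median was 0.31. In 8 of them all mutant arrays lay above all wild types, as in 4.39% of all genes. The ON bipolar glutamate receptor gene Grm6 differed by 0.40 (adjusted p = 0.093). Prkca, a rod bipolar marker, and the channel gene Trpm1 differed by -0.07 and 0.03. The list means of the groups lay close together, at 1.98 to 2.28 in the mutants and 1.79 to 1.97 in the wild types. Among 20 amacrine genes Sst, the neuropeptide somatostatin, rose by 0.89 ± 0.18 (adjusted p = 0.028), a call kept in 3 of the 8 fits that left out 1 array. With array row as a covariate no amacrine gene was called. None of 18 ganglion cell genes and none of 8 horizontal cell genes passed, with 1 in each at an unadjusted p under 0.05 and medians of -0.12 and -0.07.

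**Figure D3:**
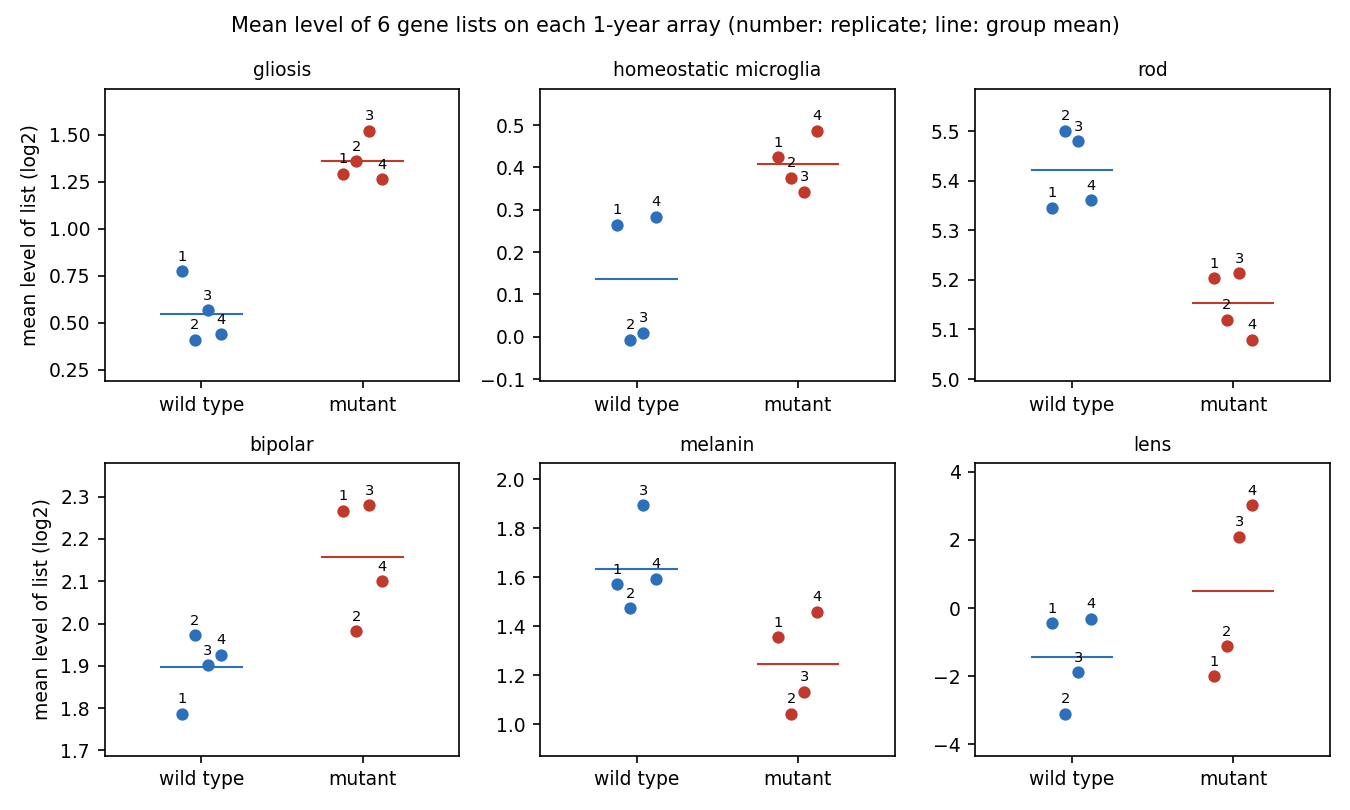
Mean level of 6 gene lists on each 1-year array, in log2 units above the array's 75th percentile, with replicate numbers beside the points and a line at the group mean. Gliosis, microglia and rod means separate the groups. Bipolar and melanin means do so barely, with nearest arrays at 1.98 and 1.97 (bipolar) and at 1.46 and 1.47 (melanin), mutant first. The lens mean runs from -3.10 to -0.31 in the wild types and reaches 2.09 and 3.02 on mutant replicates 3 and 4.

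RPE genes did not pass the test as a rule. Of 13 visual cycle genes none passed, and 6 had an unadjusted p under 0.05. Rpe65 read 3.38, 2.98, 3.08 and 3.52 in the mutants and 3.97, 3.70, 3.94 and 4.00 in the wild types, a difference of -0.66 ± 0.17 (adjusted p = 0.099) with no overlap. Lrat, which makes the retinyl esters that RPE65 uses, differed by -0.48. None of 13 melanin genes passed (7 at an unadjusted p under 0.05), 11 had negative differences, and the median was -0.38. Tyrp1 and Slc45a2 differed by -0.75 and -0.70, and Tyr, the rate-limiting enzyme of melanin, by -0.09. None of 17 RPE transport, 12 junction or 15 phagocytosis genes passed, with 2, 2 and 3 at an unadjusted p under 0.05 and medians of 0.00, 0.02 and 0.01.

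Prss56, a secreted serine protease made by Müller glia and known for its part in eye growth, had the largest fall among genes measured in both groups. It read -2.57, -5.17, -3.96 and -4.004 in the mutants and -1.86, -1.22, -1.12 and -1.30 in the wild types. Mutant replicate 1, the array whose sex-linked genes went against its label, lay nearest to the wild types. The log2 difference was -2.55 ± 0.43 (adjusted p = 0.0094), 5.85-fold, and without the 3 arrays of that kind in the series it was -3.00. Within slide 1 it was -3.39 and within slide 2 -1.71. Of the 7 eye size genes tested, no other passed. Adamts18, a matrix protease gene, differed by -0.73 (adjusted p = 0.10) with no overlap.

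Other large falls were in genes of several kinds. Omg, a myelin glycoprotein gene on chromosome 11, read -1.23, -1.54, -1.13 and -1.41 in the mutants and 0.74, 1.02, 0.58 and 1.08 in the wild types (-2.19 ± 0.14, adjusted p = 6.4e-07). The other 9 oligodendrocyte and optic nerve genes tested did not pass, Mog differing by -0.24. Prkcq, protein kinase C theta, read -2.34, -2.45, -2.47 and -2.21 against -0.33, -0.74, -0.45 and -0.47 (-1.87 ± 0.10), and no other of 12 protein kinase C genes passed. Egln1, the prolyl hydroxylase that marks HIF proteins for decay in the presence of oxygen, read -3.11, -3.08, -3.23 and -3.54 against -1.48, -1.58, -1.69 and -1.53 (-1.67 ± 0.17, adjusted p = 0.00014). Its relatives Egln2 and Egln3 differed by -0.01 and 0.95, and Hif1a by 0.01, none passing. No other of 19 hypoxia genes passed. Gaa, the lysosomal glucosidase that breaks down glycogen, fell by 1.39 ± 0.08, alone among 21 lysosome genes, and Per1, a clock gene, by 0.78 ± 0.12, alone among 19 clock genes. All 5 kept their calls in all 8 fits that left out 1 array.

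Matrix and vessel genes gave few calls. Mgp, the matrix Gla protein that restrains calcification, fell by 1.11 ± 0.20 (adjusted p = 0.017), from 5.85, 5.75, 6.46 and 5.27 in the wild types to 4.68, 4.92, 4.46 and 4.80 in the mutants. Wfikkn2, which encodes a binding protein of myostatin, fell by 1.40 ± 0.21 and Meox1, a homeobox gene, by 1.19 ± 0.22. Of the 8 fits that left out 1 array, Wfikkn2 kept its call in 8, Mgp in 6 (not without mutant replicates 1 or 3) and Meox1 in 4. None of 33 matrix genes of the list passed, with 6 at an unadjusted p under 0.05. Kdr, the main VEGF receptor, rose by 0.71 ± 0.09 (adjusted p = 0.0015), from 2.58, 2.79, 2.51 and 2.69 to 3.22, 3.24, 3.57 and 3.39. A second Kdr probe differed by 0.20 and did not pass. Pecam1, a general endothelial marker, differed by -0.12 and Vegfa by -0.15.

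Markers of neighbouring eye tissues varied widely between arrays. All 21 lens genes had positive differences, with a median of 1.84, and none passed (5 at an unadjusted p under 0.05). Mutant replicates 3 and 4 stood apart: Cryaa, a lens crystallin gene, read 2.32, 2.03, 7.92 and 8.49 in the mutants and 5.83, -1.27, 3.36 and 5.55 in the wild types. The lens list median ran from 0.78 to 2.78 over the fits that left out 1 array. With the mean of the lens list on each array as a covariate, 87 genes were called in place of 163, and 81 were the same genes. Edn2, Calca and Lcn2 then differed by 3.80, 2.88 and 2.63 and stayed called. None of 14 muscle genes of the list passed (median 0.39), nor any of 10 cornea and conjunctiva genes or 8 keratin genes, with 3, 0 and 1 at an unadjusted p under 0.05. Beside them stand 4 muscle-type genes chosen after their values were seen, which rose: Cox8b by 1.40, Myl4 by 1.37, Pdlim3 by 0.88 and Tnnt1 by 0.70. The myosin light chain gene Myl4 read -0.42, 0.20, -0.50 and 0.22 in the mutants and -1.47, -1.67, -1.65 and -1.17 in the wild types, while the muscle list mean overlapped, at 0.86 to 2.61 in the mutants and 0.66 to 1.58 in the wild types. The part of these tissues in the other results was otherwise not tested.

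A share of the 1-year differences was also called at 1 month, when 518 genes (2.72%) differed, 386 higher (2.03%) and 132 lower (0.694%). In all 50 genes were called at both ages, 30.7% of the 1-year and 9.65% of the 1-month calls. In 48 of them the sign was the same, with 28 higher and 20 lower. Only Gnat3 and Adcy7 changed sign. Gnat3, a transducin gene of taste cells, had differences of 0.45 at 1 month and -0.55 at 1 year. Adcy7, an adenylyl cyclase gene, had differences of 0.72 and -0.89. Cuedc1 differed by 1.99 at 1 month and 2.17 at 1 year, Omg by -2.45 and -2.19, Prkcq by -1.58 and -1.87, Gaa by -1.28 and -1.39 (a second Gaa probe by -0.57 at 1 year, not called), Egln1 by -1.22 and -1.67, Pnpt1 by -0.97 and -1.003, and Kdr by 0.68 and 0.71. BC006965, a noncoding RNA gene chosen after its values were seen, was not well above background on any 1-year mutant array. It was at least 4.91-fold lower there, with -4.11 ± 0.21 (SD, n = 4) in the wild types. A second probe of Pnpt1 rose by 0.90 at 1 year (adjusted p = 0.0049 over all probes), so the probes of this gene disagree in direction.

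**Figure D4:**
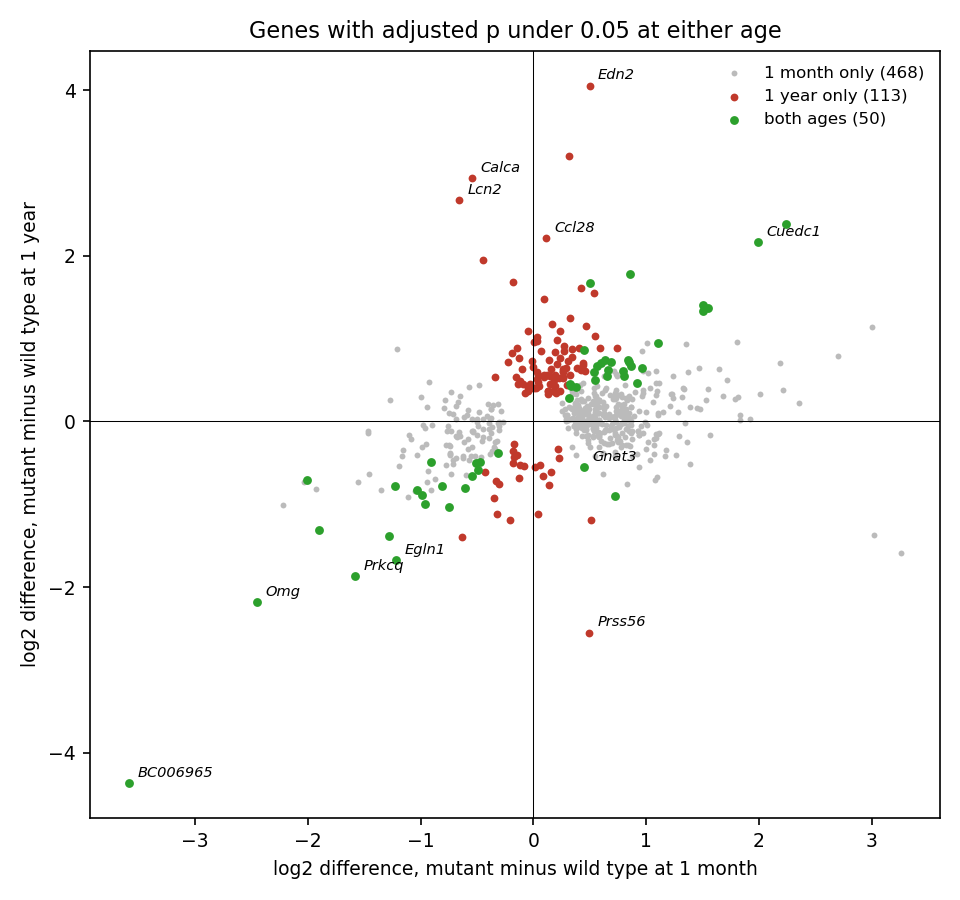
Log2 difference between mutant and wild type at 1 month (x) and 1 year (y) for every gene called at either age, coloured by where it was called. The 50 genes called at both ages have the same sign on both axes except Gnat3 and Adcy7, while Edn2, Calca, Lcn2 and Prss56 are far from 0 on the 1-year axis only.

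Genes called at both ages gathered on chromosomes 11 and 8. Chromosome 11 held 36 of the 163 called genes (22.1%) and 7.92% of the genes tested, and 17 of the 50 called at both ages. Chromosome 8 held 16 called genes (9.82%) and 4.99% of those tested, and 10 of the 50. Chromosome 3 had a similar share at 1 year, with 14 called genes (8.59%) and 4.78% of those tested, and 5 of the 50. On chromosome 8, 9 of the 76 tested genes from Klhdc4 to Slc35f3 were called (11.8%), 7 of them at both ages. The run includes Egln1 and its neighbour Tsnax (-0.49), Klhdc4 (0.50), Rnf166 (-0.51), Ccsap (0.45) and Trim67 (0.62), so its genes went both ways. Trim67 kept its call in 1 and Ccsap in 5 of the 8 fits that left out 1 array. Agt, the angiotensinogen gene, lies in the same run and fell by 0.75 ± 0.13. The run was picked after the values were seen. On chromosome 11 the called genes ran from Kremen1 to Myadml2 and included Cuedc1, Omg, Pnpt1, Gaa, Stat3 and Socs3. They were unevenly placed, with none between Pnpt1 and Shisa6, tested genes 150 and 495 in gene order. No called gene lay on chromosome 19, and 1 lay on X.

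**Figure D5:**
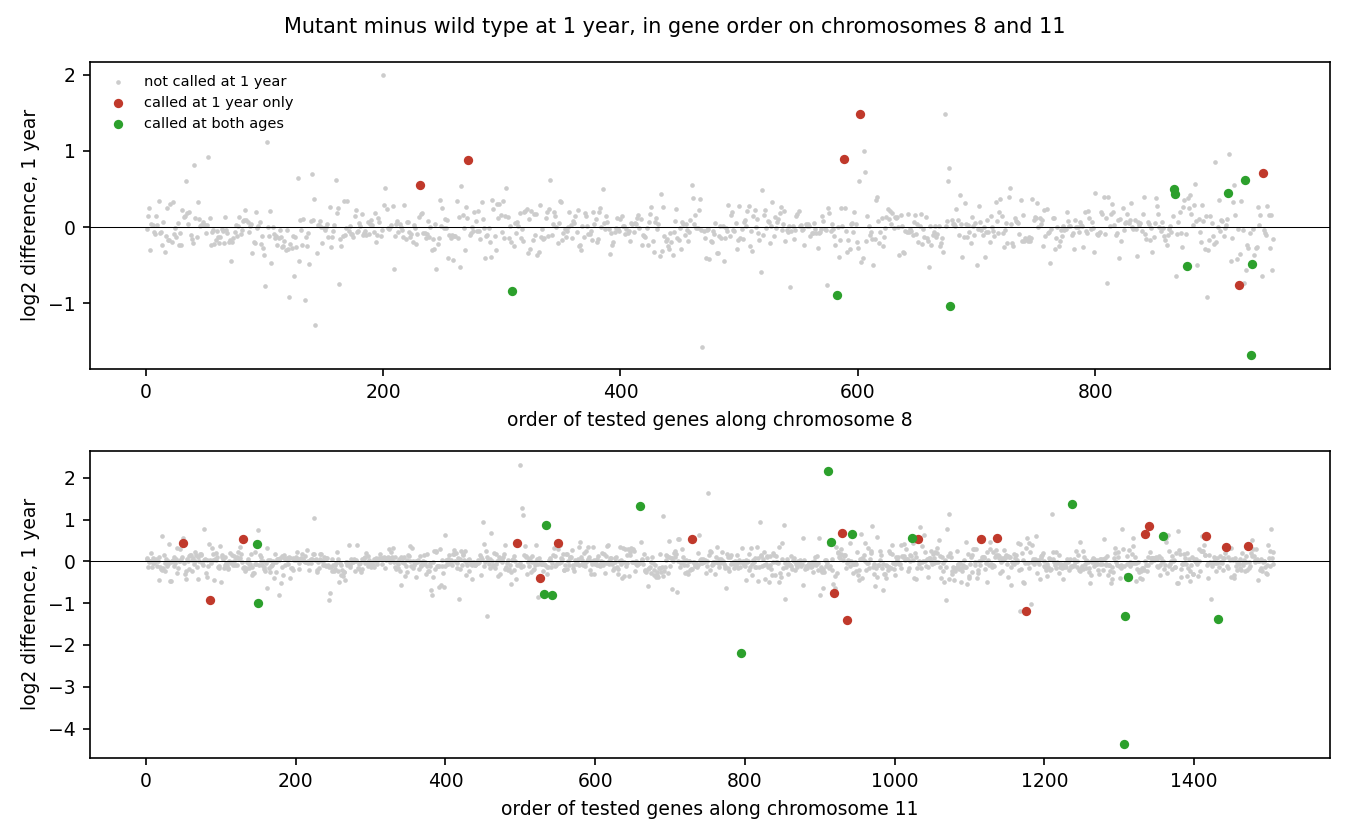
Log2 difference at 1 year for the tested genes of chromosomes 8 (top) and 11 (bottom), in gene order, with genes called at 1 year only in red and at both ages in green. On chromosome 8 green points crowd at the far end, and on chromosome 11 they run from Ccdc85a to Gaa with none between Pnpt1 and Per1.

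Probes without a gene name gave further calls. Over all 49230 probes 195 were called (0.396%), 133 higher and 62 lower, and 66 of them had no gene name. Of those 66, 46 were higher and 20 lower, and 41 were also called at 1 month with the same sign. One was a probe on the reverse strand of a transcribed region at chr8:130666467-130821034 (mm9, the build of the array design), which stood well above background on all 4 mutant arrays and 1 wild-type array. It read -0.72, -0.43, -0.33 and -0.56 in the mutants and -7.36, -5.52, -7.35 and -6.99 in the wild types. As 3 of the wild-type values were not well above background, no exact difference is given. Among regions with several probes, all 4 on the reverse strand of chr11:87872568-87880978 were called higher, by 1.08 to 3.19. On the reverse strand of chr11:112905201-113062945 all 3 were called lower, by -1.995 to -1.18. An overlapping entry on that strand, chr11:112898724-113062945, had 5 of 8 probes called lower. Its differences ran from -2.05 to -0.12, with a median of -1.13. On the forward strand of chr3:96074625-96086375, 4 of 5 were called higher, with a median of 2.27. Gene-named probes other than the one used for the gene were called too. A Pard3 probe on chromosome 8 differed by -3.61 ± 0.14 while the gene's brightest probe differed by 0.16, and a Fam89a probe rose by 1.06 while the brightest differed by -0.74.

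The genotype difference itself differed between ages for 80 genes (0.421%), 27 with a more positive difference at 1 year and 53 with a more negative one. Of the 163 genes called at 1 year, 21 were among them. Edn2 differed by 0.50 at 1 month (adjusted p = 0.40) and the gap between the ages was 3.56 ± 0.37 (adjusted p = 0.00095). Calca differed by -0.55 at 1 month and Lcn2 by -0.66, neither called, with gaps of 3.49 and 3.33. Ccl28, Cebpd and Cfi had gaps of 2.10, 2.08 and 1.87. Cebpd was called at 1 month, with a difference of -1.21, and was not called at 1 year (0.87, adjusted p = 0.23). In the other direction Prss56 differed by 0.50 at 1 month, a gap of -3.05 ± 0.61 (adjusted p = 0.047). The collagen genes Col3a1 and Col14a1 were called higher at 1 month, by 2.35 and 1.83, and differed by 0.23 and 0.01 at 1 year. Pirb, an inhibitory receptor gene of myeloid cells, Slc45a2, a melanosome transporter gene, and Apln, an angiogenic peptide gene, had gaps of -1.90, -1.78 and -1.76. All were called higher at 1 month, by 1.38, 1.07 and 1.09. At 1 year they differed by -0.51, -0.70 and -0.67 and were not called. Gnat1, chosen here because it is the called rod gene, differed by 0.22 at 1 month, with a gap of -0.55 (adjusted p = 0.017).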

How the data were processed

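Each array held one sample, labelled with Cy3 through a low-input amplification kit, per the labels' protocols. The deposited scanner files were written by Agilent Feature Extraction 11.0.1.1 with a probe design on build mm9, per the file headers, and give a background-subtracted intensity per spot on a linear scale. The authors also deposited a table of log2 values, of which 55681 of 55821 rows matched a probe; every array has the same median there, and how it was normalized is not given in the sources used here. No wild-type or mutant array reached saturation in more than 2 spots.

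For the results, control spots and spots flagged as outliers were left out, spots of a probe were averaged, and the log2 intensity minus the array's 75th percentile was taken. A probe entered the fit if 4 or more of the 16 arrays measured it well above background, which left 49230. Probe accessions were matched to RefSeq (GRCm38.p6), which named 27235 of 55681 probes (20660 genes); a gene was represented by its brightest probe over the 16 arrays, which left 19022 genes. All 16 arrays were fitted with 4 group means in limma 3.58.1 (R 4.3.3), and p-values were adjusted by Benjamini-Hochberg over all genes, or over all probes where stated. The steps were tested on simulated data first. Fits used 4 arrays per group, which limits their precision.

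The 50 gene lists (815 genes, 795 tested) and the comparison itself were chosen with earlier results of these data known. Genes named are the 12 with the largest called change in each direction, the first 2 members of each list and up to 6 called ones, 12 called at both ages, and 6 in each direction for the difference between ages; other genes named, uncalled list members included, were chosen after their values were seen. The planned normexp alternative used median in place of mean spot signals. A count of arrays below background gives a bound: the bright group's mean against the dim group's lowest signal well above background. Some genes are not reported here.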

Additional observations from a re-analysis of the deposited data

Results flagged for a closer look

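In a group of 4 arrays, 1 array stood apart from the other 3 when its gap to the nearest, divided by the group's range, exceeded Dixon's 95% critical value. Of 252 sets of 4 examined, 19 did so (7.54%), where chance gives about 1 in 20. Among the mutants these were Cfi (0.835, replicate 2), Ddx3y (0.991, replicate 1), Gnat3 (0.846, replicate 1), Mlc1 (0.940, replicate 3), Slc7a10 (0.848, replicate 4) and Slc6a2 (0.842, replicate 1). The means of the oxidative stress list (0.836, replicate 4), the glycogen and amylase list (0.964, replicate 2) and the cell cycle list (0.953, replicate 2) stood apart in the mutants as well. Among the wild types they were Tnnt2 (0.874, replicate 4), Gaa (0.874, replicate 3) and Hk2 (0.940, replicate 4). The list means were those of gp130 cytokine genes (0.888), interferon genes (0.929), hypoxia genes (0.857) and cell death genes (0.903), all on wild-type replicate 1. On wild-type replicate 4 they were the neutrophil (0.912), endothelial and VEGF (0.917) and neurotrophic (0.846) lists.

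The genotype difference itself differed between 1 year and 1 month, by limma's test of that difference, in 12 genes named for it. It was more positive at 1 year for Edn2 (3.56), Calca (3.49), Lcn2 (3.33), Ccl28 (2.10), Cebpd (2.08) and Cfi (1.87). It was more negative at 1 year for Prss56 (-3.05), Col3a1 (-2.13), Pirb (-1.90), Col14a1 (-1.82), Slc45a2 (-1.78) and Apln (-1.76).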

How the results depend on the processing

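The counts of 163 genes and 195 probes at 1 year, 80 genes for the difference between ages and 50 genes at both ages moved with the processing, and the cause was not tested. Array-median scaling gave 82, 155, 21 and 24, and normexp background with quantile normalization 278, 364, 116 and 71. Of the 5 ways of scaling, quantile normalization and the deposited log2 table gave nearly the same count, 215 and 216 genes, so the ways are not independent. The 8 arrays at 1 year alone gave 86 genes and 101 probes. Within slide 1 the counts were 10, 11, 1 and 1, and within slide 2 they were 12, 18, 0 and 5, where limma gave 1285 genes an unadjusted p under 0.05 for the difference between ages. Without the 3 arrays of female pattern they were 78, 103, 12 and 22, and with the pattern as a covariate 29 genes were called at both ages. Replicate numbers did not pair the arrays (correlations of -0.03, 0.10, 0.16 and 0.03), and with the replicate block the counts were 96, 112, 43 and 31. Moderation with an intensity trend gave 125 genes for the difference between ages. Array row as a covariate gave 138, 168, 62 and 41. The lens covariate, chosen after seeing the data, gave 87, 112 and 29. At least 2-fold left 38 genes. Leaving out 1 array gave 84 to 308 genes, 110 to 303 probes, 35 to 195 for the difference between ages and 33 to 63 at both ages. Of the 74 called genes named by rule or after their values were seen, 43 kept their call in all 8 such fits. Higher genes were 71.2% of calls, 78.0% under array-median scaling, and 61.4% without wild-type replicate 4. They were 70% of the 10 calls within slide 1 and 50% of the 12 within slide 2. None of those 74 genes changed sign under any of these settings. Other called genes named above, Scrg1 among them, were not followed through the settings.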
